A study of Mus musculus with 6 samples.

Results

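The 32 genes described here are known markers and regulators of vascular endothelium, measured in mouse ocular lenses at embryonic day 19.5 on oligonucleotide arrays. They were chosen as a fixed list of endothelial genes, without a threshold on any measured value, and all probe sets that the platform annotation assigns to exactly 1 of them were used. Of the 32, 31 matched by symbol and Gpr116 matched as Adgrf5, its RefSeq name. They had 54 probe sets among 45037 tested, and 18193 genes were measured in all. The wild type group held 3 littermate controls in which Notch2 was not ablated in the lens, and the mutant group held 3 embryos with lens-specific conditional ablation of Notch2, a receptor of the Notch pathway. Embryos of both groups had a mixed C57BL/6 & FVB/N genetic background and received no further treatment, and each array carried RNA from the pooled lenses of 1 embryo. The Cre driver and the deleted exons are not given in the sources used here.

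The lens itself holds no blood vessels. In the embryo it is wrapped by a capillary net, the tunica vasculosa lentis, which is fed by the hyaloid artery and regresses around and after birth. Endothelial cells of such vessels need vascular endothelial growth factor (VEGF) acting on Kdr, angiopoietin acting on Tek, and transcription factors of the ETS and SoxF families, and they use Notch signalling to choose between sprouting and arterial fates. Per the labels' protocols, surrounding tissue was dissected away from the lenses before freezing, so how much of the vessel net stayed on each lens is not known.

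Every value below is a log2 value that the authors' table centres on the probe set's median over the 6 arrays. Such values give differences between arrays, not levels, so the presence of endothelial or lens transcripts could not be checked against a detection limit. In bulk RNA of this kind, fewer endothelial cells and less RNA per cell cannot be told apart. The number of arrays, 3 per group, limits the precision. Differences between genotypes subtract the wild type mean from the mutant mean, and their standard error (SE) comes from limma, a linear model with a spread shared across probe sets, and a gene was called when its p adjusted over all 45037 probe sets was below 0.05. Each gene is described by its probe set with the largest standard deviation (SD) over all 6 arrays, taken without regard to genotype.

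The libraries carried marks that the labels do not mention. The 18 hybridization control probe sets averaged between -1.50 and -0.99 on wild type 1, wild type 2 and mutant 1 and between 0.99 and 1.48 on wild type 3, mutant 2 and mutant 3. Xist, the RNA that silences an X chromosome in females, read 7.38 on wild type 2 and 7.02 on mutant 3 by 1 probe set and between -0.61 and 0.02 on the other 4 arrays. The 2 Notch2 probe sets differed between genotypes by 0.49 and -0.42, with adjusted p-values of 0.752 and 0.514 in limma, and therefore did not check the labels. The SD over all probe sets was 0.384 on wild type 3 and between 0.223 and 0.332 on the other 5 arrays. The beta-actin control probe sets for the 3′ and 5′ ends were highest on wild type 2, at 0.25 and 0.47. Both were lowest on wild type 3, at -0.37 and -0.39. Many endothelial genes had the same highest and lowest arrays, as given below, and the part of this mark in their values was not tested.

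The promoters below belong to the 4 endothelial genes that differed most between wild type 2 and wild type 3 among those with 1 listed start site, a choice made after their values were seen. They are shown because these genes moved together between arrays. Each is the 250 bases before the start in RefSeq (GRCm38.p6), written 5′ to 3′, and capitals mark AGGAAG or its reverse complement CTTCCT, letters that ETS-type factors can bind.
Emcn (chr3:137340828-137341077, plus strand): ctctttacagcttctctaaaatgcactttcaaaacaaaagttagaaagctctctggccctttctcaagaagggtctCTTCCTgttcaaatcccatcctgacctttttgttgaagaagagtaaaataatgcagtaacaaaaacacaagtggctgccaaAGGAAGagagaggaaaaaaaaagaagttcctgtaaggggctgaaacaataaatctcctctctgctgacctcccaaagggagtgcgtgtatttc
Clec14a (chr12:58269259-58269508, minus strand): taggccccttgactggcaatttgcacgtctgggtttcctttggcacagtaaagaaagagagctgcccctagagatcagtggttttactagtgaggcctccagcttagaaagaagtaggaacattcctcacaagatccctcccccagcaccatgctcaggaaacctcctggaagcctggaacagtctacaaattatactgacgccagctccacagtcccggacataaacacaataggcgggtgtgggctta
Robo4 (chr9:37401722-37401971, plus strand): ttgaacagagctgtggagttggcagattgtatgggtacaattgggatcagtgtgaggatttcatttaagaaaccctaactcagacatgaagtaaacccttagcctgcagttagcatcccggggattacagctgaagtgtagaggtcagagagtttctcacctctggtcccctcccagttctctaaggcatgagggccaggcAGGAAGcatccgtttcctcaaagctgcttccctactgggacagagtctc
Eng (chr2:32646345-32646594, plus strand): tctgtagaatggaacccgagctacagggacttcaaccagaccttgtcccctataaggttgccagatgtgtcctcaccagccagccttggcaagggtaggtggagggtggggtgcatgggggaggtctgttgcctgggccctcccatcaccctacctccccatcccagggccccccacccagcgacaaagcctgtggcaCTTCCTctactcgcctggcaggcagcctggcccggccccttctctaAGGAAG
Emcn and Eng held 2 such matches each, Robo4 held 1 and Clec14a held 0. The promoter table had entries for 17 of the 32 genes, with 23 windows. On both strands, AGGAAG was in 11 of the 23 windows (47.8%) and in 29.5% of all 32851 promoter windows of the same length. AACAAT, letters that Sox factors can bind, was in 3 of the 23 windows (13.0%) against 9.42% of all windows. GATAAG, letters that partners of Tal1 can bind, was in 1 of the 23 windows (4.35%) against 6.55% of all. These matches describe letters in a window and not binding, and windows of 1 gene are not independent.

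Between genotypes, no endothelial gene was called. In limma 0 of the 32 genes passed, where 0.748% of all genes measured by 1 probe set each passed, and 0 of the 54 probe sets passed, where 0.469% of all probe sets did. At an unadjusted p below 0.05 there were 0 of the 32 genes against a background of 15.6%, and 1 of the 54 probe sets against 11.6%. Of the 32 differences 16 lay above 0, beside 45.9% of all genes, and of the 54 probe sets 26, beside 47%. The 32 ran from -0.43 for Egfl7 to 0.49 for Pecam1. Their median was -0.0032, beside a median of -0.03 over all genes. The groups did not overlap in 2 of the 32 genes, Egfl7 and Tal1, or 6.25%, beside 19.6% of all genes. Tal1 alone lay higher in the mutants, where 9.48% of all genes did. By probe set they did not overlap in 3 of 54, beside 17.8%, and 2 of these, of Tal1 and Clec14a, lay higher in the mutants, beside 8.73%. The median SE of 0.26 left wide intervals. For 26 of the 32 genes (81.2%) the 95% interval of the difference lay within 1 log2 unit of 0, beside 84.3% of all genes. For 6 (18.8%, beside 15.7%) it reached beyond, so that a change of that size was not excluded for those 6. These counts use 1 probe set per gene. The second Clec14a probe set, not counted here, had an interval from 0.17 to 1.08.

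**Figure D1:**
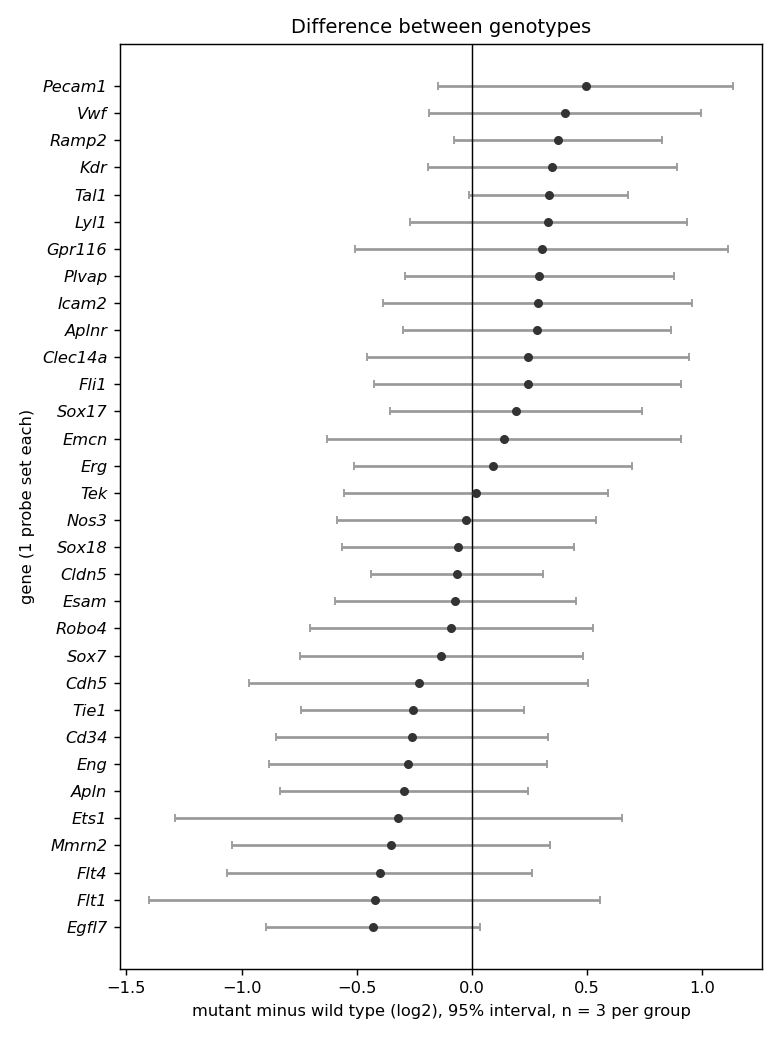
Mutant minus wild type difference (log2, x axis) of the 32 endothelial genes (y axis), with points for the estimate and bars for limma's 95% interval, n = 3 per group. The estimates run from -0.43 for Egfl7 to 0.49 for Pecam1 and all 32 intervals cross 0.

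The endothelial genes instead differed between the wild type embryos. On wild type 2 they had a median of 0.54, with 30 of 32 above 0, and on wild type 3 a median of -0.43, with 28 of 32 below 0. Wild type 1 lay between at -0.05, and the mutants lay close together at 0.08, -0.03 and -0.01. The median of all 18193 genes lay between -0.02 and 0.03 on the 6 arrays. Wild type 2 was the highest array for 25 of the 32 genes (78.1%), beside 10.9% of all genes, and wild type 3 the lowest for 21 (65.6%), beside 21.9%. Both held for 15 genes (46.9%), beside 2.64% of all genes. Among the 15755 genes whose SD over the 6 arrays lay in the range of these 32, the same 3 shares were 10.4%, 21.7% and 2.61%. Wild type 2 exceeded wild type 3 in 31 of the 32, by a median of 1.02 or 2.03-fold, where the median over all genes was -0.03. The difference reached 0.5 in 27 genes (84.4%), beside 15.3% of all genes. With all 54 probe sets, 35 were highest on wild type 2, beside 11.2% of all probe sets, and 17 were also lowest on wild type 3, beside 2.81%. Of the 14 genes with over 1 probe set, 11 had probe sets that differed in the sign of the genotype difference, and 4 (Egfl7, Erg, Ets1 and Flt4) in the sign of wild type 2 minus wild type 3. These are counts over 1 embryo per array and carry no test.

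**Figure D2:**
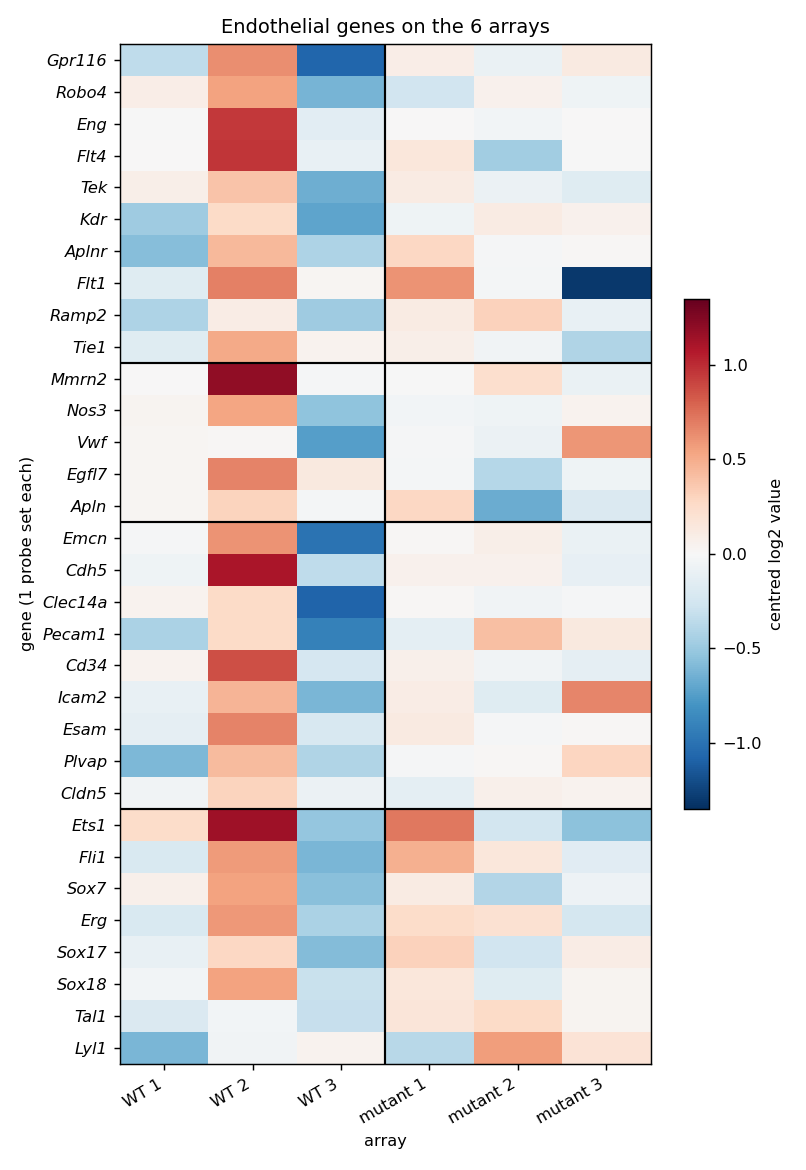
Centred log2 value (colour) of the 32 endothelial genes (rows, grouped from top to bottom as receptors and partners, secreted and matrix products with Nos3, junction and surface proteins, and transcription factors) on the 6 arrays (columns). Wild type 2 is the highest array for 25 genes and wild type 3 the lowest for 21, while the mutant columns are paler except for single genes such as Flt1 on mutant 3 at -1.30.

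The receptors that take up growth and guidance signals were mostly highest on wild type 2. Of 10 receptors and receptor partners, 9 were highest there, 6 were lowest on wild type 3 and 5 were both, with a median difference of 1.00 between those arrays. Kdr, the main VEGF receptor of endothelium, read -0.48, 0.25 and -0.71 on wild type 1, 2 and 3 and -0.05, 0.11 and 0.05 on mutant 1, 2 and 3. The mutants lay inside the wild type range, and the genotypes differed by 0.35 (SE 0.24, adjusted p = 0.653 in limma). Tek, the angiopoietin receptor, read 0.08, 0.38 and -0.65 in the wild types and 0.11, -0.08 and -0.17 in the mutants. Its genotype difference was 0.02 with a 95% interval from -0.55 to 0.59. Eng, a TGF-beta and BMP co-receptor, stood apart on a single array by 1 of its 2 probe sets. It read 0.95 on wild type 2 there and between -0.15 and 0.01 on all others. The second Eng probe set read 0.05 on wild type 2, with mutant 3 highest at 0.16 and mutant 1 lowest at -0.37. The genotype differences of Eng were -0.28 and 0.02 by these probe sets. Gpr116, an adhesion G protein-coupled receptor, had the widest gap of all 32, with 0.63 on wild type 2 and -1.07 on wild type 3, while its mutants read 0.09, -0.09 and 0.12.

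Robo4, a guidance receptor of quiescent endothelium, read 0.09, 0.54 and -0.62 in the wild types and -0.26, 0.06 and -0.06 in the mutants. Flt4, the receptor for VEGF-C, was high on wild type 2 at 0.97 and lowest on mutant 2 at -0.47, with the other 4 arrays between -0.10 and 0.15. Its second probe set had the reverse order, at -0.27 on wild type 2 and 0.28 on wild type 3, and a genotype difference of 0.21 against -0.40. Tie1, the orphan partner of Tek, ranged from 0.51 on wild type 2 to -0.41 on mutant 3, and the groups overlapped. Ramp2, the partner of the adrenomedullin receptor, was the only receptor gene not highest on wild type 2: its wild types read -0.41, 0.10 and -0.48 and its mutants 0.11, 0.31 and -0.10. Its genotype difference of 0.37 (SE 0.20, 95% interval from -0.08 to 0.82) did not pass.

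Flt1, the VEGF receptor that also gives rise to a soluble decoy, had 4 probe sets that disagreed on genotype. They also differed in which wild type array was lowest. By the probe set with the largest SD it read -0.16, 0.68 and 0.02 in the wild types and 0.61, -0.02 and -1.30 in the mutants, so that mutant 3 alone was low. The other 3 probe sets of Flt1 gave genotype differences of -0.34, -0.03 and 0.22, and on mutant 3 they read -0.49, 0.29 and 0.16. In all 4 wild type 2 exceeded wild type 3, by 0.37 to 0.66. The apelin receptor Aplnr read -0.58, 0.43 and -0.42 in the wild types and 0.28, -0.02 and 0.02 in the mutants, with genotype differences of 0.28 and -0.29 by its 2 probe sets, both highest on wild type 2.

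Among the secreted and matrix products, Apln, the ligand of Aplnr, went its own way. Apln read 0.03, 0.30 and -0.03 in the wild types and 0.28, -0.67 and -0.19 in the mutants, with mutant 2 lowest. Ligand and receptor thus shared their highest array, but not their lowest. Mmrn2, a matrix protein that binds Clec14a, read 1.19 on wild type 2 and between -0.09 and 0.22 on the other 5 arrays, and all 4 of its probe sets were highest on wild type 2. Vwf, the clotting factor stored in endothelial granules, did not stand out on wild type 2: it read 0.02, 0.02 and -0.75 in the wild types and -0.02, -0.08 and 0.60 in the mutants. Nos3, which makes endothelial nitric oxide, read 0.03, 0.53 and -0.54 in the wild types, and its mutants stayed between -0.06 and 0.05.

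Egfl7, a secreted protein of growing vessels that is known to bind Notch receptors and ligands, had the lowest difference of the 32 genes. Its wild types read 0.02, 0.67 and 0.13 and its mutants -0.02, -0.39 and -0.06. The groups did not overlap by this probe set, and the difference of -0.43 (SE 0.21, adjusted p = 0.478 in limma) did not pass. The other 3 Egfl7 probe sets gave 0.09, 0.04 and -0.03 with overlapping groups, so the separation was seen by 1 of 4 probe sets.

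The junction and surface proteins were the most even in the mutants. Of 9, 7 were highest on wild type 2 and 7 lowest on wild type 3, and the median SD was 0.57 in wild type and 0.10 in the mutants. Cdh5, the cadherin of endothelial junctions, read -0.05, 1.10 and -0.34 in the wild types and 0.05, 0.06 and -0.11 in the mutants. Its genotype difference was -0.23 with a 95% interval from -0.97 to 0.50. Emcn, a surface sialomucin of capillaries and veins, read -0.02, 0.60 and -0.99 against 0.02, 0.08 and -0.09. Clec14a, a surface lectin, was set apart by wild type 3 at -1.08, with all other arrays between -0.05 and 0.26. Its second probe set was the only one of the 54 with an unadjusted p below 0.05: it read -0.14, -0.14 and -0.70 in the wild types and 0.14, 0.52 and 0.24 in the mutants. The groups did not overlap there, and the difference of 0.63 (SE 0.20, adjusted p = 0.244 in limma) did not pass.

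Pecam1, the adhesion molecule most used to mark endothelium and also carried by platelets and leukocytes, had the highest difference of the 32 genes. It read -0.42, 0.26 and -0.91 in the wild types and -0.13, 0.41 and 0.13 in the mutants, a difference of 0.49 (SE 0.28, adjusted p = 0.578 in limma) with overlapping groups. Cd34, a sialomucin of endothelium and blood progenitors, was highest on wild type 2 at 0.87, with the mutants between -0.12 and 0.07. Esam, a junctional immunoglobulin protein, read 0.67 on wild type 2 and between -0.21 and 0.12 elsewhere. Cldn5, the claudin of barrier vessels, was also highest on wild type 2, within a narrow range from 0.31 there to -0.13 on mutant 1. Plvap, which forms the diaphragms of leaky vessels, read -0.60, 0.42 and -0.41 in the wild types, and its mutants read -0.02, 0.02 and 0.29. Icam2, an adhesion molecule, departed from this on mutant 3: that array read 0.66, above wild type 2 at 0.46, and wild type 3 was lowest at -0.62.

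Of the 8 transcription factors 5 were highest on wild type 2, 6 were lowest on wild type 3 and 4 were both. The 3 SoxF factors act in arterial and lymphatic specification. By the probe set with the largest SD, wild type 2 exceeded wild type 3 by 1.11 for Sox7, 0.86 for Sox17 and 0.84 for Sox18. The second probe sets of Sox7 and Sox17 gave 0.0022 and 0.51. Sox18 read -0.04, 0.54 and -0.30 in the wild types and 0.15, -0.17 and 0.04 in the mutants. Of the ETS factors that maintain endothelial identity, Erg read -0.21, 0.58 and -0.43 in the wild types and Fli1 read -0.21, 0.57 and -0.61. By these probe sets their mutants lay inside those ranges, at 0.25, 0.21 and -0.24 for Erg and at 0.48, 0.15 and -0.15 for Fli1. Ets1 varied in both groups, with 0.25, 1.14 and -0.52 in the wild types and 0.71, -0.25 and -0.55 in the mutants. Its 4 probe sets gave genotype differences from -0.32 to 0.18 and wild type 2 minus wild type 3 differences from -0.19 to 1.66. The second Erg probe set gave -0.10 for the latter and a genotype difference of -0.29, against 0.09 by the first. The second Fli1 probe set gave 0.63 between wild type 2 and wild type 3. Its genotype difference was 0.38, against 0.24 by the first, and mutant 3 at 0.39 lay above all its wild types. Neither second probe set passed.

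Tal1 and Lyl1, related factors shared by endothelium and blood-forming cells, were highest on mutant 2 and not on wild type 2. Tal1 read -0.19, -0.04 and -0.32 in the wild types and 0.16, 0.25 and 0.04 in the mutants. The groups did not overlap, but the difference of 0.33 (SE 0.15, 95% interval from -0.01 to 0.68) had an adjusted p of 0.458 in limma. Lyl1 was the only gene of the 32 with wild type 2 below wild type 3, at -0.05 and 0.05, and it was lowest on wild type 1 at -0.62. Its correlation over the 6 arrays with the mean of the other 31 genes was -0.08, the lowest of all, whereas the median was 0.81 and Esam had the highest at 0.96.

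The wild types were therefore more spread than the mutants in these genes. The median SD was 0.54 over the 3 wild type arrays and 0.17 over the 3 mutant arrays, where all genes had 0.23 and 0.25. The SD was larger in wild type for 29 of the 32 genes (90.6%), beside 46.1% of all genes, and the exceptions were Flt1, Lyl1 and Apln. It was also larger in wild type for 75.6% of 41 other endothelial genes and 75% of 20 macrophage markers described below. On the remaining lists below the share ran from 38.5% to 62.5%. In 17 of the 32 genes (53.1%), beside 3.70% of all genes, all 3 mutants lay between wild type 3 and wild type 2. Taking the probe set with the largest SD favours spread, in these genes as in the background. With all 54 probe sets the medians were 0.44 and 0.20, and 41 of 54 had the larger SD in wild type, beside 46.2% of all probe sets.

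**Figure D3:**
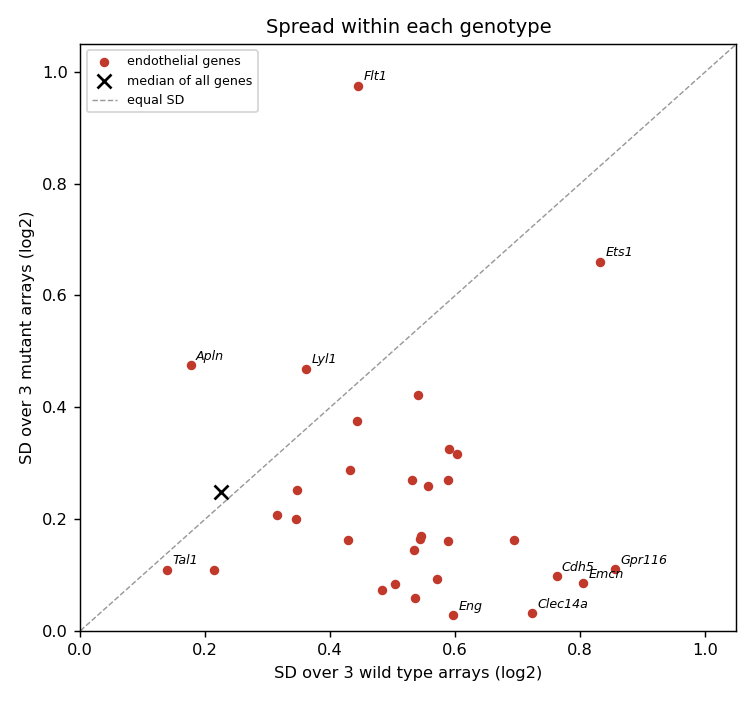
SD over the 3 wild type arrays (x axis, log2) against SD over the 3 mutant arrays (y axis, log2) for the 32 endothelial genes (points), with the median of all genes as a cross and the dashed line marking equal SD. All points but Flt1, Lyl1 and Apln lie below the line.

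The genotype comparison rested on which wild type arrays entered it. Without wild type 2 the median difference of the 32 genes was 0.24 and 27 lay above 0. Without wild type 3 it was -0.24 and 9 lay above 0. With both left out it was 0.04, against 1 wild type array. No gene of the 32 was called without wild type 2 or without wild type 3. At an unadjusted p below 0.05 in limma there were 7 of the 32 and 0 of the 32 in these fits. Beside them stood 4858 and 4626 of all 45037 probe sets. The median difference over all genes was -0.04 without wild type 2 and -0.0018 without wild type 3. Within the 3 arrays of low hybridization control signal (wild type 1, wild type 2 and mutant 1), the median difference was -0.09, and within the other 3 (wild type 3, mutant 2 and mutant 3) it was 0.42, where all genes had -0.04 and -0.05. With this split as a block the median was 0.13 and 0 genes were called. Between the arrays with high Xist (wild type 2 and mutant 3) the median difference was -0.53, and among the other 4 arrays it was 0.32, where all genes had 0.0031 and -0.05. The arrays high in Xist thus lay apart in these genes, with a median of 0.54 on wild type 2 and of -0.01 on mutant 3. The part of either split in the endothelial values was not tested, since each side holds only 1 or 2 arrays of a genotype.

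Of the genes outside the list that resembled its mean most over the 6 arrays, 3 (Cd93, Notch4 and Tmem204) were on the other lists of endothelial genes. The genes named are the 10 with the highest Pearson correlation among 4250 genes at least as variable as the median of the 32, and all points share arrays, normalisation and centring. Gimap4 (0.98), Epas1 (0.98), a hypoxia-inducible factor abundant in endothelium, Cd93 (0.98), a surface receptor for Mmrn2, Stard8 (0.97) and Rgcc (0.97) led. Notch4 (0.95), the Notch receptor of endothelium, and Tmem204 (0.94), a junction protein of endothelium, came next. After them stood Lyz1 (0.94), read by an _x_at probe set, Cd163 (0.93), a gene of macrophages, and Ero1b (0.93). Notch4 read -0.28, 0.65 and -0.82 in the wild types and 0.22, 0.18 and -0.18 in the mutants. Over all genes 2.13% reached a correlation of 0.8 with the mean, including the 32 that form it.

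**Figure D4:**
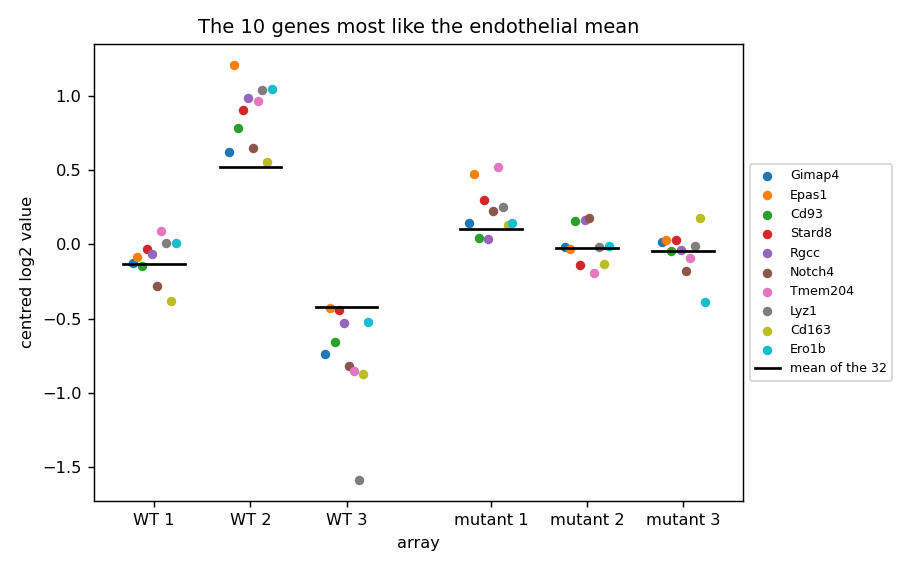
Centred log2 values (y axis) of the 10 genes most correlated with the endothelial mean on each array (x axis), with a point per gene and black bars for the mean of the 32 endothelial genes. All 10 lie above 0.5 on wild type 2 and below -0.4 on wild type 3.

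A further list held other endothelial genes. Of 41 measured genes, 13 (31.7%) were highest on wild type 2, beside 10.9% of all genes, and 16 (39%) lowest on wild type 3, beside 21.9%. Both held for 6 genes (14.6%, beside 2.64%), and wild type 2 exceeded wild type 3 in 26 with a median of 0.35 over the list. None of the 41 was called, beside 0.748% of all genes, and 3 had an unadjusted p below 0.05, beside 15.6%. Lyve1, a marker of lymphatic endothelium and of tissue macrophages, had the widest gap of these, with 0.83 on wild type 2 and -1.45 on wild type 3. By genotype the smallest p belonged to Slc38a5, an amino acid transporter, which read 0.53, 0.25 and 0.94 in the wild types and -0.25, -0.65 and -0.82 in the mutants. The groups did not overlap, and the difference of -1.15 (SE 0.22, adjusted p = 0.0622 in limma) did not pass. Nr2f2, the venous identity factor, differed by 0.69 (SE 0.23) and Ushbp1 by 0.53 (SE 0.18), Ptprb, the phosphatase that restrains Tek, by 0.52 (SE 0.29), and none of these passed.

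Among ligands and co-receptors of vessel growth, 1 of 21 measured genes was called, beside 0.748% of all genes. Sema3a, a repulsive guidance cue that signals through Nrp1, fell in the mutants: it read 0.82, 0.39 and 0.63 in the wild types and -0.48, -0.64 and -0.39 in the mutants, a difference of -1.12 (SE 0.17, adjusted p = 0.0396 in limma). The call was kept without wild type 2 (adjusted p = 0.0444) and lost without wild type 1, wild type 3, mutant 1, mutant 2 or mutant 3, at 0.197, 0.0721, 0.111, 0.171 and 0.0704. Vegfa, the ligand of Kdr and Flt1 that lens cells are known to make, was lower in all 3 mutants, at -0.11, -0.57 and -0.38 against 0.30, 0.16 and 0.11, but its difference of -0.54 (SE 0.17, adjusted p = 0.233) did not pass. Apela, the second apelin receptor ligand, read 0.42, 0.44 and 0.05 against -0.52, -0.52 and -0.05 (difference -0.67, adjusted p = 0.198), and Sema3e, a ligand of Plxnd1, differed by 0.58 (adjusted p = 0.166). At an unadjusted p below 0.05 there were 8 of the 21, beside 15.6% of all genes: 4 lay lower in the mutants (Sema3a, Vegfa, Apela and Adm) and 4 higher (Sema3e, Vegfc, Nrp1 and Nrp2), and all but Sema3a missed the adjusted threshold. The list's median difference was -0.23, and the groups did not overlap in 4 of 21 genes (19.0%), beside 19.6% of all genes.

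None of 13 endothelial Notch genes and none of 17 genes of hyaloid vessel regression and Norrin signalling was called, beside 0.748% of all genes. An unadjusted p below 0.05 was reached by 4 and 1 of them, beside 15.6% of all genes. Dll1, a Notch ligand that retinal progenitors also make, had the smallest p of the first list (difference 0.78, SE 0.16, adjusted p = 0.0691 in limma), before Unc5b at 0.63, Notch1 at 0.62 and Hey2 at 0.47. Dll4, the ligand of sprouting tip cells, read -0.72, -0.07 and 0.34 in the wild types and 0.07, -0.23 and 0.34 in the mutants and did not share the endothelial order. In the second list Wnt7b, which macrophages use to trigger hyaloid regression and which lens cells also express, read 0.57, 0.19 and 0.63 in the wild types and -0.19, -0.36 and -0.53 in the mutants. The groups did not overlap, and the difference of -0.82 (SE 0.18, adjusted p = 0.0866) did not pass. Dkk2, Wnt7a and Bmp4 differed by 0.44, -0.41 and 0.27.

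Markers of other cell types were read on the same arrays, by median over each list. The medians of the macrophage and of the retinal markers had the wild type order of the endothelial genes. The 20 macrophage and microglia markers lay at -0.81, -0.01 and -1.20 on wild type 1, 2 and 3, and lay at 0.05, 0.26 and 0.45 in the mutants. Wild type 2 exceeded wild type 3 in 16 of the 20, up to 2.88 for Fcgr3, but wild type 2 was the highest array for 3. By genotype none was called, with Ctss at 1.51 (adjusted p = 0.0650 in limma), C1qb at 1.53, C1qc at 1.29 and Fcgr3 at 2.13. Of the 20, 19 lay higher in the mutants, beside 45.9% of all genes. An unadjusted p below 0.05 was reached by 12, beside 15.6% of all genes. The groups did not overlap in 7 (35%), beside 19.6%. The 18 retinal neuron and progenitor markers lay at -1.03, -0.44 and -1.37 in the wild types and at 0.81, 1.17 and 0.49 in the mutants. Wild type 2 exceeded wild type 3 in 15 of the 18, by a median of 1.03 (1.24 over the macrophage markers), and wild type 3 was the lowest array for 13 (72.2%). All 18 lay higher in the mutants, beside 45.9% of all genes, and 10 were called, beside 0.748%. The 10 ran from Lhx2 at 1.19 to Otx2 at 2.31, with Atoh7, Elavl3, Neurod4, Neurog2, Six6, Tubb3, Isl1 and Syt1. Unlike in both of those lists, the endothelial mutants did not lie above the wild types.

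Mural cells wrap vessels, and their 18 markers gave -0.10, 0.31 and 0.02 in the wild types and 0.00, -0.01 and -0.04 in the mutants. None was called, beside 0.748% of all genes (3 had an unadjusted p below 0.05, beside 15.6%). Of the 18, 7 were highest on wild type 2 (38.9%, beside 10.9% of all genes) and 2 lowest on wild type 3 (11.1%, beside 21.9%). Rgs5, a pericyte gene, was the 1 with both (5.56%, beside 2.64%). Rgs5 read -0.01, 0.77 and -1.20 in the wild types and 0.43, -0.32 and 0.01 in the mutants. Pdgfrb, like Rgs5 named after its values were seen, was higher on wild type 2 (0.67) than on wild type 3 (-0.32), but its highest array was mutant 1 and its lowest mutant 2. By genotype Acta2, the smooth muscle actin, differed by 0.88 (adjusted p = 0.0673), Cspg4 by -0.74, Notch3 by -0.47 and Tagln by 0.34. The 13 erythroid genes, which mark blood in the vessels, lay at -0.09, -0.01 and 0.26 in the wild types and -0.18, 0.03 and 0.09 in the mutants, so wild type 3 was not low and wild type 2 not high. Epor, Hba-x, Hbb-b2 and Slc4a1 differed by -0.51, -0.37, 0.54 and 0.41 and did not pass. Nor did the 8 megakaryocyte and platelet markers (medians from -0.11 to 0.14) have a call: Pf4, also made by macrophages, differed by 0.70, Gp9 by -0.31, Itga2b by -0.31 and Treml1 by 0.22.

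The 15 periocular mesenchyme markers had medians between -0.15 and 0.12 on the 6 arrays. Of these markers 2 were called, beside 0.748% of all genes. Col6a1, a matrix collagen, rose by 1.15 and Pdgfra, which lens epithelium also carries, fell by 1.94, while Tfap2b at 2.04 (adjusted p = 0.0704) and Prrx1 at 0.73 did not pass. The 15 lens markers were at 0.05, 0.04 and 0.02 in the wild types and at -0.17, -0.16 and -0.16 in the mutants. Here too 2 were called, beside 0.748% of all genes. Dnase2b, the nuclease of fibre denucleation, fell by 2.47 and Maf, a fibre transcription factor, by 1.32, while Foxe3 at -0.86 and Lim2 at -0.82 did not pass. Of the 15 calls in all these lists, 9 were kept without wild type 2, 3 without wild type 3, 2 without mutant 3, and 1, Dnase2b, without wild type 1, mutant 1 or mutant 2. The part of macrophage, retinal or other cells in the endothelial values was not tested.

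**Figure D5:**
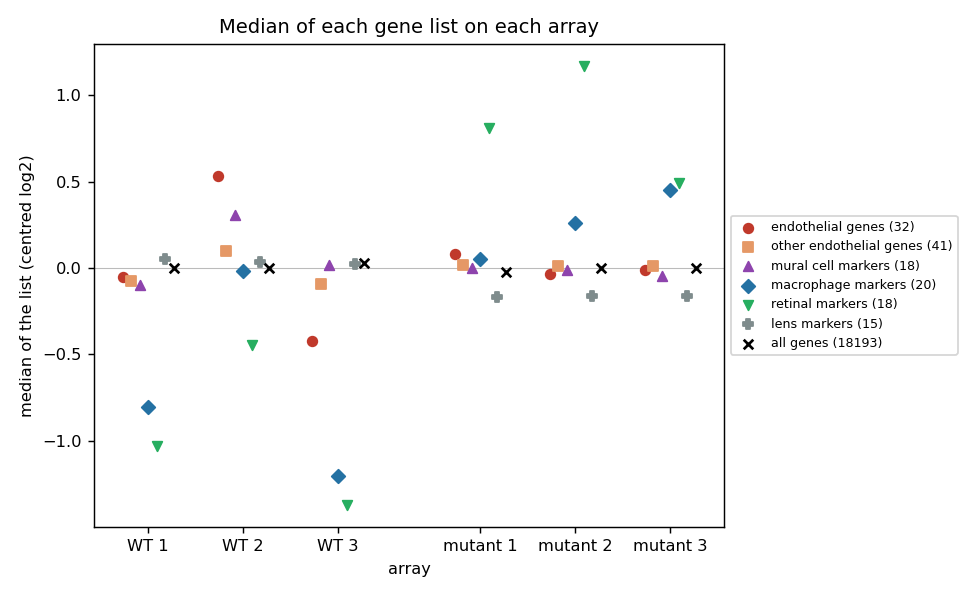
Median centred log2 value (y axis) of 7 gene sets on each of the 6 arrays (x axis), with symbols for the sets and the number of genes in the key. The endothelial genes lie at 0.54 on wild type 2 and -0.43 on wild type 3, the macrophage and retinal markers are lowest on wild type 3 but highest in mutants, and the lens markers stay within 0.17 of 0.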

How the data were processed

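RNA from mouse lenses was measured on 6 arrays, 3 wild type and 3 Notch2 mutant. The authors deposited log2 values, with RMA as the tool per the submitters' processing notes; its version and a genome build are not given in the sources used here, and the base of the logarithm was inferred from the range of the values. The medians of the probe sets over the 6 arrays were 0 to within 5e-07, a centring that no source describes. Gene symbols came from the array's platform annotation (34945 with 1 symbol, 932 with several and 9160 with none, the last 2 kinds unnamed), and older symbols through RefSeq synonyms (GRCm38.p6). 64 array controls were left out.

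Genotypes were compared by lmFit and eBayes of limma (3.58.1, under R 4.3.3) over all 6 arrays without a covariate, with Benjamini-Hochberg adjustment over 45037 probe sets, after a test of the script on simulated data. Replicates are called biological in the labels, and p-values measure the spread between these embryos. The genes, lists and tests were chosen with earlier results of these data known. From each related list the 4 genes with the smallest p and those that passed were named, and others were picked after their values were seen. Promoter letters came from a RefSeq table. Alternatives were another quantile normalisation, array medians subtracted, array weights, robust variance, no _x_at and _s_at probe sets, only the more variable probe sets, a replicate block and each array left out. The 2 array splits as blocks and leaving out wild type 2 and 3 together were added after seeing the data. The filter used SD because centred values hold no level.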

Additional observations from a re-analysis of the deposited data

How the results depend on the processing

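No endothelial gene or probe set was called under any of the 16 alternatives (49 of the 54 probe sets were in the fit without _x_at and _s_at probe sets and 42 in that of the more variable ones), and the lowest adjusted p of a gene, 0.222 in limma, came with the hybridization control block. The median difference of the 32 genes lay between -0.24 and 0.24 over the fits that leave out 1 array, and both ends came from leaving out a wild type array (3 and 2). It was -0.10 after another quantile normalisation, -0.09 with array weights, 0.0084 with array medians subtracted, -0.02 over all 54 probe sets and -0.02 over the mean of each gene's probe sets. The count of all probe sets called, 211, was 584 after another quantile normalisation, 889 with array weights, 738 among the more variable probe sets, 530 with the replicate block, 790 with the hybridization control block, 38 with the Xist block and 0 without wild type 2 and 3 (2648 at an unadjusted p below 0.05 in limma), and from 7 to 155 with each array left out. Calls among the 194 genes of the related lists, 15, were 25, 28, 33 and 23 in the first 4 of these, 2 with the Xist block, 0 without wild type 2 and 3, and from 1 to 18 with each array left out. The labels do not say whether the replicate numbers pair the embryos. Deviations of same-numbered arrays from their group means correlated at 0.33, -0.14 and 0.26. The best correlated mutant was mutant 1 for wild type 1 and wild type 2, and mutant 3 for wild type 3. With 3 arrays per group these values cannot decide on pairing. With the replicate block 0 endothelial genes were called and the median difference was -0.0032. The signal over background is not known from centred values.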
